A study of Homo sapiens with 9 samples.

Results

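The response of melanoma cells to the RAF inhibitor PLX4720 was followed at 2, 6 and 24 h on the 3 PLX4720 arrays and the 3 DMSO arrays of a series of 9 arrays. The cells were A375P, an established human melanoma cell line that carries a mutant RAF kinase. They received the solvent DMSO, 0.4 µM PLX4720, or 1 µM of the MEK inhibitor PD184352, each for 2, 6 or 24 h, with 1 column of values deposited for each treatment and time. No transgene, selection or other agent is named, and the line is the background that all groups share. The series text speaks of triplicate experiments, and whether a deposited column is 1 array or an average of 3 is not stated there. A column is called an array throughout.

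The members were chosen by treatment alone and not by any measured value: each PLX4720 array was set against the DMSO array of the same time, over every gene that had a row naming 1 gene symbol. That left 17047 genes, and the 12786 that passed a filter on dim genes were tested. A change is the difference of log2(intensity + 1), PLX4720 minus DMSO, at 1 time. With 1 PLX4720 array per time, the error of a change had to come from the 3 DMSO arrays. For each gene the spread over DMSO at 2, 6 and 24 h was taken, limma moderated it across genes, and the standard error (SE) of a change follows from it and is the same at each time. A gene was called at a Benjamini-Hochberg adjusted p below 0.05 over all 12786 genes. These p-values measure the spread between DMSO arrays, which includes any drift with time in culture, and not the spread between repeats of the PLX4720 treatment.

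RAF kinases phosphorylate the MEK kinases, which in turn phosphorylate ERK. Active ERK drives transcription of immediate-early genes, of ETS-family transcription factors and of cyclin D1, and it also raises its own brakes, the DUSP phosphatases and the Sprouty (SPRY) and SPRED proteins, whose transcripts are widely used as a readout of the pathway. In melanoma lines with a mutant RAF kinase the pathway is switched on without growth factors, and PLX4720, a close relative of the drug vemurafenib, binds the active form of that kinase.

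Median intensities ranged from 98.96 to 101.6 over the 6 arrays. At the bright end, the 99th percentile ran from 1681 to 1754 with DMSO and from 1550 to 1645 with PLX4720. Quantile normalization, which gives every array the same distribution, left 22 of the 36 genes called lower at 6 h, and at 24 h it gave 850 genes called lower and 634 higher against 843 and 450 on the deposited values. Of 11 markers of melanocytes or melanoma, 7 had a row and all 7 passed the filter on dim genes. S100A1, TYR, PRAME and MAGEA3 had no row of their own, and TYRP1, of the melanocyte lineage list, was among the dim genes. SOX10, the lineage's transcription factor, measured 989.5, 1152 and 1189 in DMSO and 924, 1080.0 and 1615 with PLX4720 at 2, 6 and 24 h. Of 31 markers of fibroblasts, keratinocytes and epithelium, leukocytes and endothelium, 12 were among the dimmest 25% of genes and were left out of the tests, among them PTPRC, CD3D, EPCAM and PECAM1. At any time 0 of the other 19 were called, beside 10.1% of all genes tested at 24 h. A call concerns a change with PLX4720 and does not tell which cells were present. The summed intensities of these markers in DMSO and PLX4720 arrays were 762 to 796 and 823 to 828 for fibroblasts, 999.6 to 1054 and 1053 to 1123 for keratinocytes, 1761 to 2494 and 2063 to 2518 for leukocytes, and 784 to 822 and 742 to 905 for endothelium. Those of the 7 melanocyte or melanoma markers were 4905 to 5234 and 4949 to 6423. The mutant kinase, the kinases directly below it and the other genes without a row of their own are not analysed here.

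At 2 h, 3 genes were called lower with PLX4720 and 0 higher, 0.0235% of the genes tested. The lower genes were DUSP6, the phosphatase that switches off ERK in the cytoplasm, SPRY2, an inhibitor of receptor signalling to RAS, and IER3, an immediate-early gene that affects ERK activity and cell survival. DUSP6 measured 1492, 1686 and 1560.5 in DMSO and 210.3, 179 and 411 with PLX4720 at 2, 6 and 24 h. Every PLX4720 array lay far below every DMSO array, and the 2 h array was already close to the 6 h one. Its change at 2 h was −2.82 (SE 0.14, adjusted p = 0.000558), which is 7.07-fold lower. SPRY2 measured 1193, 1294 and 1034 in DMSO and 227, 180.1 and 296 with PLX4720, a change at 2 h of −2.39 (SE 0.17, adjusted p = 0.0044). IER3 measured 2104, 2312 and 2039.9 in DMSO and 688, 691 and 816 with PLX4720, and its change at 2 h was −1.61 (SE 0.14, adjusted p = 0.0156). In both genes the DMSO and PLX4720 arrays did not overlap.

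Beyond these 3, the changes at 2 h were small or uncertain. By size alone, 5 genes were at least 2-fold lower (0.0391% of genes tested) and 1 at least 2-fold higher (0.00782%). The lower ones were the 3 called genes, MRPL20 and SPRY4, and the higher one was FKBP5. SPRY4, another Sprouty inhibitor, stood at −1.95 (SE 0.26, adjusted p = 0.208), with a DMSO level that went from 1290.4 at 2 h to 1910.4 at 24 h. MRPL20, a mitochondrial ribosomal protein, and FKBP5, a co-chaperone of steroid receptors, named here after their values were seen, also varied between DMSO arrays, from 91.8 to 198 and from 66.2 to 111, and were not called. ERRFI1, an inhibitor of the EGF receptor family, stood at −0.95 and EGR1, an immediate-early transcription factor, at −0.91, and neither was called at this time. An unadjusted p below 0.05 was reached by 147 genes at 2 h. Called genes went to 0 without the 6 h DMSO array and to 17 without the 24 h DMSO array. Such a fit takes its spread from fewer DMSO arrays, so the error of each gene changes with it.

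**Figure D1:**
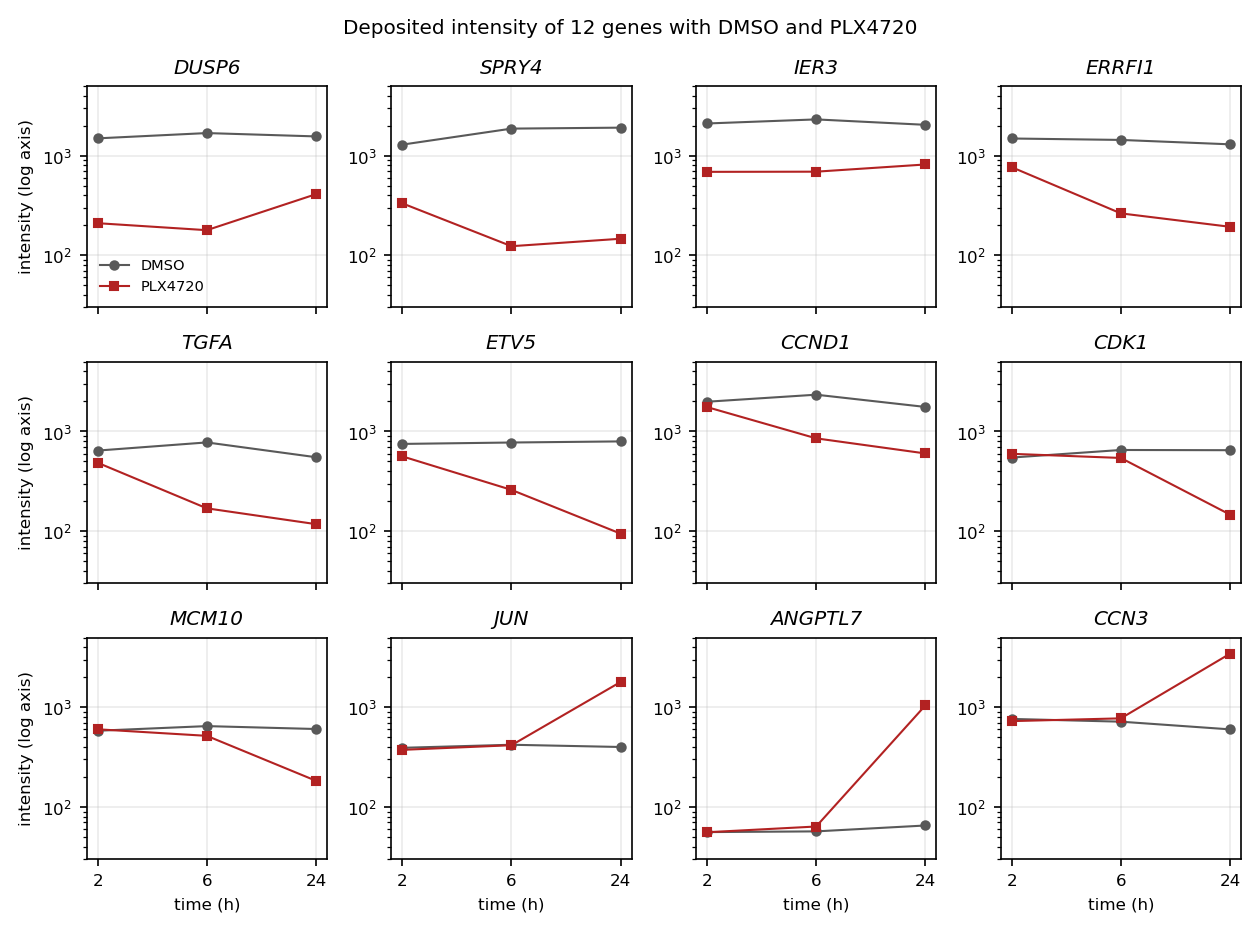
Deposited intensity (log axis) against time (2, 6 and 24 h) for 12 genes, with DMSO in grey circles and PLX4720 in red squares, 1 array per point and no error bars. The top row and TGFA fall by 2 h or 6 h, while CDK1, MCM10, JUN, ANGPTL7 and CCN3 lie on the DMSO line at 2 h and near it at 6 h and leave it at 24 h; heights of different genes are not comparable.

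DUSP6 and SPRY2 belong to the ERK feedback inhibitors. Of 10 tested, 2 were called lower at 2 h, 5 at 6 h and 7 at 24 h, and 0 were called higher at any time. Of all genes tested, 0.0235%, 0.282% and 6.59% were called lower at these times. The median change of the 10 feedback inhibitors was −0.37 at 2 h, −1.03 at 6 h and −0.67 at 24 h, against 0.00, −0.04 and −0.02 over all genes tested. SPRY4 had the largest fall of any gene at 6 h and at 24 h: it measured 1290.4, 1869 and 1910.4 in DMSO and 333, 124 and 147 with PLX4720, or 15-fold lower at 6 h (change −3.91, SE 0.26, adjusted p = 0.00113). The PLX4720 level at 2 h was between the DMSO level and the later PLX4720 levels, though the difference between its 2 h and 6 h changes was not called.

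SPRED1, a membrane-bound inhibitor of RAS to RAF signalling, measured 1236, 1384 and 1372 in DMSO and 1238, 669 and 682 with PLX4720, with changes of 0.00, −1.05 and −1.01 at 2, 6 and 24 h (SE 0.14). The 2 h arrays were level, and the gene was called at 6 h (adjusted p = 0.041) and 24 h (adjusted p = 0.00448). Its relative SPRED2 fell at 6 h by 1.11 and at 24 h by 0.58 on the log2 scale. DUSP4, a nuclear ERK phosphatase, and DUSP5, which acts on nuclear ERK, were called only at 24 h, at −0.76 and −0.56, with −1.02 and −0.86 at 6 h (adjusted p = 0.0835 and 0.0572). SPRY1, DUSP7 and SPRED3 were called at no time, with 24 h changes of −0.42, −0.39 and −0.02.

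DUSP6 came part of the way back between 6 h and 24 h. Its level with PLX4720 was 179 at 6 h and 411 at 24 h while the DMSO level moved from 1686 to 1560.5, and the change went from −3.23 to −1.92. The difference between the 2 times was 1.31 (SE 0.20, adjusted p = 0.0395), and this call was lost without the filter on dim genes (adjusted p = 0.0928). The change of SPRY2 was −2.84 at 6 h and −1.80 at 24 h, a difference of 1.03 (SE 0.24, adjusted p = 0.12) that missed the threshold. For SPRY4 the difference was 0.21 (adjusted p = 0.951) and for IER3 0.42 (adjusted p = 0.603). All of these genes were still called lower at 24 h.

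The MEK inhibitor gave a reference for this return, at another dose (1 µM against 0.4 µM), so the values below compare these arrays and not the potency of the compounds. DUSP6 with PD184352 measured 193, 101 and 114, close to its 6 h level at 24 h. At 24 h DUSP6 was higher with PLX4720 than with PD184352 by 1.84 on the log2 scale (95% interval 1.51 to 2.17, adjusted p = 0.0153). It was the only gene called between the compounds in 3 comparisons, with 0 called at 2 h, 0 at 6 h and 1 at 24 h (0.00782% of genes tested), while 156, 97 and 270 genes had an unadjusted p below 0.05. SPRY2 with PD184352 measured 211, 101 and 95.4 and at 24 h the level with PLX4720 minus that with PD184352 was 1.62 (95% interval 1.23 to 2.02, adjusted p = 0.0836). SPRY4 stood at 0.73 (95% interval 0.13 to 1.32, adjusted p = 1) and SPRED1 at 0.54 (95% interval 0.21 to 0.87). For DUSP4, at 0.15 (95% interval −0.25 to 0.56), DUSP5, at −0.07 (−0.39 to 0.25), and DUSP7, at −0.10 (−0.52 to 0.32), the interval included 0. The DUSP6 call was lost without the 6 h DMSO array, without the filter on dim genes and with a spread taken from all 9 arrays (0 genes each). The 9-array spread comes from a fit of treatment plus time, in which a change that grows with time counts as spread. Leaving out the 2 h or the 24 h DMSO array gave 35 or 20 genes.

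**Figure D2:**
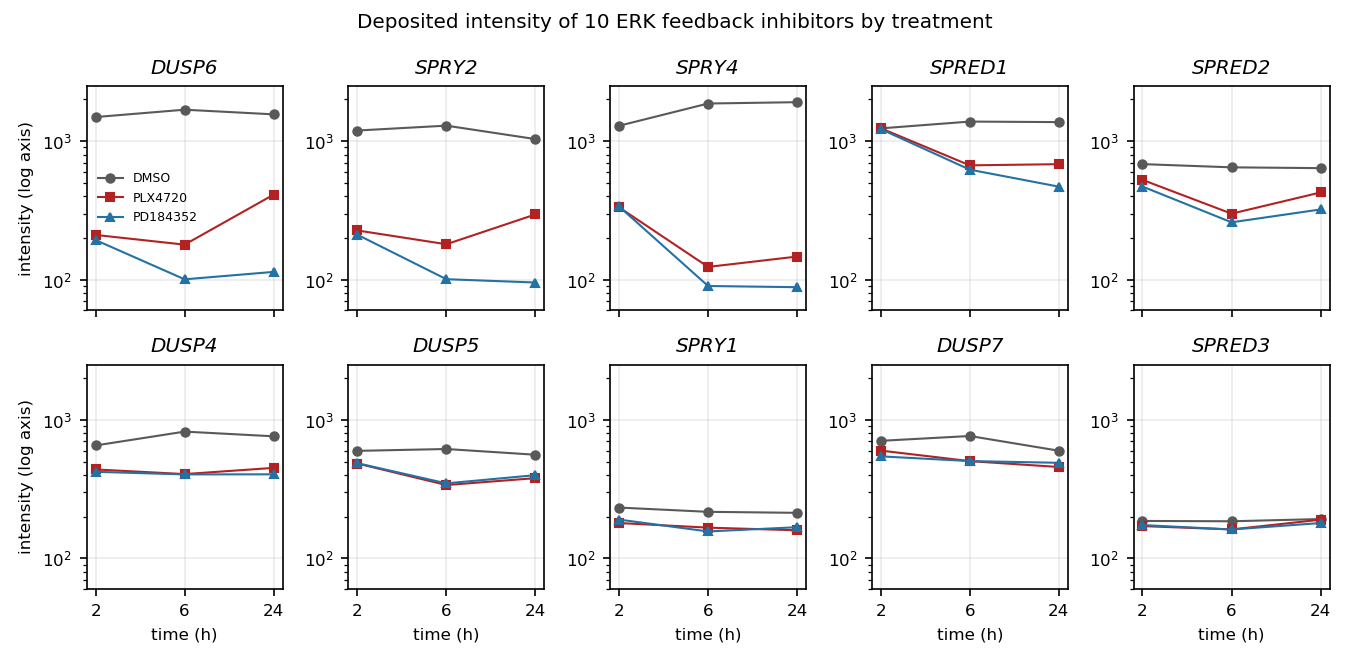
Deposited intensity (log axis) of the 10 ERK feedback inhibitors against time, for DMSO (grey circles), 0.4 µM PLX4720 (red squares) and 1 µM PD184352 (blue triangles), 1 array per point and no error bars. DUSP6 and SPRY2 with PLX4720 turn up at 24 h and with PD184352 stay near their 6 h level, while the lower row shows nearly the same course with both compounds.

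At 6 h, 36 genes were called lower (0.282% of genes tested) and 0 higher, and 48 were at least 2-fold lower (0.375%) against 1 higher (0.00782%), SEMA3D. With 0 genes called higher, 828 genes of either direction had an unadjusted p below 0.05. Of the 36, 35 had a change below 0 at 2 h already, with a median of −0.40 there and of −1.23 at 6 h, and 34 were called lower again at 24 h, where the median was −1.41. The exceptions at 24 h were ELK3, an ETS factor that is phosphorylated by ERK, at −0.54 (adjusted p = 0.077), and HES1, a Notch target, at −0.41 (adjusted p = 0.0938). Leaving out the 2 h or 24 h DMSO array gave 340 or 262 called genes at 6 h, and no filter on dim genes gave 6. The spread from all 9 arrays, in which a change that grows with time counts as spread, gave 0.

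Among the largest falls at 6 h were a ligand and an inhibitor of the EGF receptor family. ERRFI1 measured 1487, 1439 and 1299.9 in DMSO and 768, 264 and 193 with PLX4720, a change of −2.44 at 6 h (SE 0.15, adjusted p = 0.000775). TGFA, a ligand of the EGF receptor, measured 643, 777 and 552 in DMSO and 486, 169 and 118 with PLX4720, a change of −2.19 at 6 h (SE 0.22, adjusted p = 0.0139). In both genes the 3 PLX4720 arrays stepped down from 2 h to 24 h while the DMSO arrays stayed high. SLC20A1, a phosphate transporter, fell by 1.77, CD200, a membrane glycoprotein that dampens myeloid cells, by 1.61, GNE, the entry enzyme of sialic acid synthesis, by 1.60, and MOSMO, a membrane regulator of Hedgehog signalling, by 1.75 on the log2 scale.

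Regulators of transcription and of the cytoskeleton were also among the 36. The transcription factors were ETV5 (−1.57) and ETV1 (−1.32), both ETS factors, EGR1 (−1.17), KLF4 (−0.99), TFAP2C (−1.49), HHEX (−0.99), ELK3 (−1.19) and HES1 (−0.93). CDC42EP3, an effector of CDC42, measured 2708, 2316 and 2216 in DMSO and 1935, 863 and 987 with PLX4720 (−1.42 at 6 h, SE 0.17). PMAIP1, the pro-apoptotic protein NOXA, fell by 1.31 at 6 h and CCND1, cyclin D1, by 1.45. CEMIP, which degrades hyaluronan, and the receptors GPRC5A, HTR7 and TLR4 were lower by 1.35, 1.13, 1.13 and 1.17.

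A CArG box, the site bound by serum response factor, with which ERK-activated ETS factors act at immediate-early genes, was looked for in the promoters of these 36 genes. RefSeq promoters (GRCh38.p14, 250 bases before to 50 after the start) were matched by symbol for 29 of 36. The box was held by 2 of 29 (6.9%), those of EGR1 and RND3. It was held by 1.29% of all 35116 promoters and 1.13% of the 10191 promoters matched for genes tested (79.7% of those genes). Because under 80% of the genes tested were matched, the comparison is void. This share and those of the other motifs below are a description. As a palindromic pattern the box reads the same on both strands. The stretch upstream of the EGR1 start that holds it is shown because EGR1 is an immediate-early factor called at 6 h, 5′ to 3′ on the gene's strand with the box in capitals. It lies at chr5:138465344-138465435 on the plus strand and holds 2 boxes, the nearer one beginning 83 bases before the start.
EGR1: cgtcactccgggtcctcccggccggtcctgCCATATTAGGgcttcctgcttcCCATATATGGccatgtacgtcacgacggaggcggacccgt
EGR1 measured 399, 405 and 464 in DMSO and 211, 179.9 and 174 with PLX4720, all PLX4720 arrays below all DMSO arrays. Of the other motifs searched on both strands, 1 of 29 promoters held CRE (TGACGTCA; 1.85% of all promoters and 3.0% of those of genes tested), 0 the AP-1 site (TGANTCA; 7.71% and 4.78%), 3 the E-box (CACGTG; 7.26% and 10.0%), 1 the ETS core (CCGGAAG; 10.3% and 16.4%) and 0 the E2F site (TTTCCCGC, TTTGGCGC, TTTCGCGC or TTTGCCGC; 3.31% and 4.95%). A match is a stretch of letters and not a measured binding site.

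The immediate-early genes called at 24 h went in both directions. Of 23 tested, 1 was called lower at 2 h, 3 at 6 h and 6 at 24 h, and 2 were called higher at 24 h. Over all genes tested, 0.0235%, 0.282% and 6.59% were called lower at these times, and 3.52% higher at 24 h. The list's medians were −0.29 at 2 h, −0.33 at 6 h and −0.19 at 24 h. EGR1 (−1.41), IER3 (−1.32), EGR3 (−0.95), KLF4 (−0.91), TRIB1 (−0.97), a pseudokinase that promotes protein degradation, and MYC (−0.77), the growth-promoting transcription factor, were the lower ones at 24 h. JUN, a subunit of AP-1, went the other way: it measured 392, 421 and 399 in DMSO and 374, 416 and 1796 with PLX4720. The 2 h and 6 h arrays were level with DMSO, and at 24 h the PLX4720 array stood 4.49-fold above its DMSO array (2.17, SE 0.13, adjusted p = 0.000311). FOSL2, another AP-1 subunit, rose by 1.49 at 24 h (SE 0.22, adjusted p = 0.0057), from 0.55 at 6 h. FOSL1, the AP-1 subunit most tied to ERK activity, had changes of −0.73, −1.58 and −1.07, but its DMSO level went from 1264 to 687 and it was not called (SE 0.38, adjusted p = 0.131 at 24 h).

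The PEA3 group of ETS factors was lower at each later time. ETV5 measured 750.1, 775 and 795 in DMSO and 563, 259 and 94.4 with PLX4720, with changes of −0.41, −1.57 and −3.06 (SE 0.13, adjusted p = 7.66e-05 at 24 h). ETV4 measured 1225, 1109.7 and 1026 in DMSO and 1016, 626 and 126 with PLX4720, with changes of −0.27, −0.82 and −3.02 (SE 0.16, adjusted p = 0.000144 at 24 h). ETV1 had changes of −0.20, −1.32 and −2.27 (SE 0.14). All 3 were lowest at 24 h, and the further fall after 6 h was itself called for ETV4 (−2.19, adjusted p = 0.0252) and ETV5 (−1.49, adjusted p = 0.0252) but not for ETV1 (−0.95, adjusted p = 0.0865). Of 11 ETS factors tested, 4 were called lower at 24 h, ETS2 (−0.64) being the other, beside 6.59% of all genes tested. ETS1, which had stood at −0.20 at 6 h, was the 1 called higher (0.70, adjusted p = 0.0305), beside 3.52% of all genes tested. The list's medians were −0.13 at 2 h, −0.53 at 6 h and −0.30 at 24 h.

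Receptors upstream of the pathway moved in both directions at 24 h. The counts below stand beside 3.52% of all genes tested called higher and 6.59% lower, 10.1% in either direction. ERBB3, a receptor of neuregulins that signals through PI3-kinase, measured 899.9, 1023 and 1189.5 in DMSO and 799, 1088 and 2038 with PLX4720, a rise of 0.78 at 24 h (SE 0.19, adjusted p = 0.04). The DMSO level climbed too, by less. ERBB4 (0.63) and ERBB2 (0.58) also rose, at adjusted p = 0.0195 and 0.0299. Of the 8 members of this family tested, 3 were thus called higher and 2, ERRFI1 (−2.74) and TGFA (−2.22), lower. Of 16 other receptor tyrosine kinases, DDR1, a collagen receptor, rose (0.89, adjusted p = 0.0191), and EPHA4 (−1.31), an ephrin receptor, and IGF1R (−0.63) fell, while AXL, MET and PDGFRB were not called. Of 13 tested components of the RAS to ERK cascade, 1 was called, RASA2, a GTPase-activating protein of RAS (−0.91, adjusted p = 0.0297), and the median over the 13 was 0.04. MAPK3, the kinase ERK1, stood at 0.25 (adjusted p = 0.288).

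By 24 h the response had widened to 1293 called genes, 450 higher (3.52% of genes tested) and 843 lower (6.59%). Of these, 132 were at least 2-fold higher and 301 at least 2-fold lower, and by size alone 135 (1.06%) and 305 (2.39%) genes passed 2-fold. The 301 lower genes had median changes of −0.03 at 2 h, −0.28 at 6 h and −1.29 at 24 h. At 6 h, 85 of them (28.2%) were below −0.5, against 2.52% of all genes tested, and 26 were called. The 132 higher genes had medians of 0.00, 0.22 and 1.27, and 24 of them (18.2%) were above 0.5 at 6 h, against 0.493% of all genes, with 0 called there. The changes at 6 h and 24 h come from different arrays. The calls at both times rest on the same spread of the 3 DMSO arrays, so they are not independent. Without the 6 h DMSO array 312 genes were called at 24 h and without the 2 h DMSO array 2576. With the spread from all 9 arrays, in which a change that grows with time counts as spread, 0 were called.

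**Figure D3:**
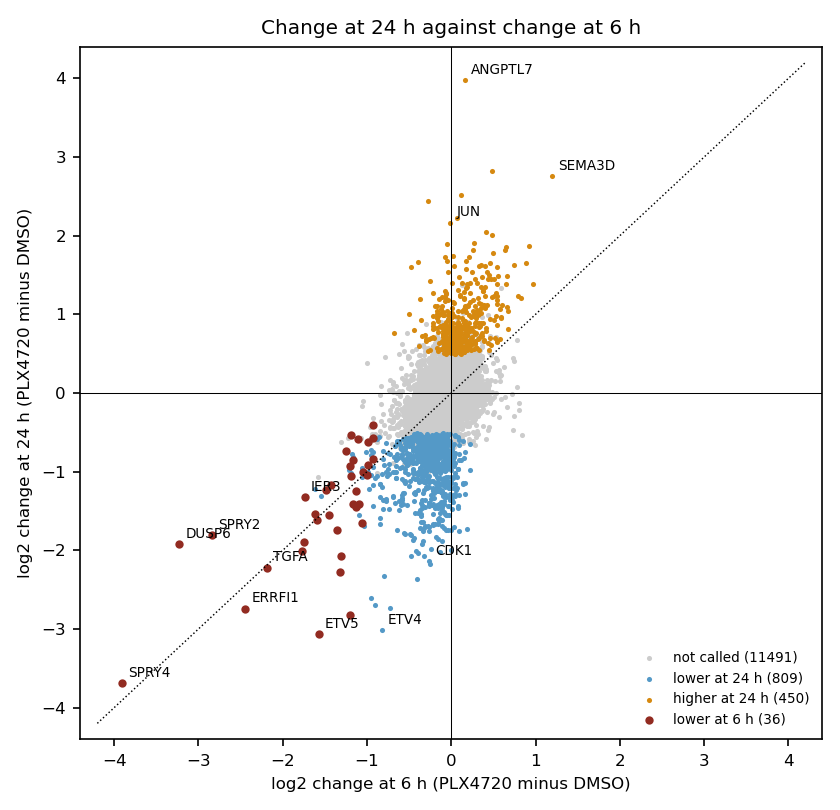
Log2 change at 24 h (vertical) against log2 change at 6 h (horizontal), PLX4720 minus DMSO of the same time, for the 12786 genes tested, each a point, with the line of equal change dotted. The 36 genes called lower at 6 h (dark red) mostly lie near the dotted line. The other genes called at 24 h, higher (orange) or lower (blue), mostly lie nearer the vertical axis, without a gap between the groups. Of all 843 genes called lower at 24 h, 163 were at or below −0.5 at 6 h, those called at 6 h included. Of the 450 called higher, 34 were at or above 0.5 at 6 h.

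The largest falls at 24 h were those of SPRY4 (−3.69), ETV5 and ETV4, followed by MRGPRX4 and MRGPRX3, related G-protein-coupled receptors, at −2.82 and −2.73. Those receptors have close copies in the genome, so their rows may share signal. LPL, the lipase that frees fatty acids from lipoproteins, measured 1038, 924 and 977 in DMSO and 889.9, 494 and 150.3 with PLX4720 and fell by 2.69 (SE 0.14, adjusted p = 0.000144). TM4SF1, a membrane protein of tumour and endothelial cells, fell by 2.61, CYB5R2, a cytochrome b5 reductase, by 2.36, and HAPLN1, which links hyaluronan to proteoglycans, by 2.18. At 6 h LPL and TM4SF1 stood at −0.90 and −0.96, and HAPLN1 and CYB5R2 at −0.25 and −0.40, none of them called.

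The largest rise was that of ANGPTL7, a secreted angiopoietin-like protein. It measured 55.9, 56.9 and 65.2 in DMSO and 55.8, 63.7 and 1044 with PLX4720. Only the 24 h PLX4720 array stood out, 15.8-fold above its DMSO array (3.98, SE 0.15, adjusted p = 6.35e-05), and the other 5 were within 55.8 to 65.2. P2RX7, an ATP-gated ion channel, measured 237, 261 and 382 in DMSO and 232, 366 and 2696 with PLX4720 (2.82, SE 0.29). CCN3, a matricellular protein, measured 764, 717 and 600.2 in DMSO and 726, 774 and 3447 with PLX4720 (2.52, SE 0.18). Both had a small change at 6 h (0.49 and 0.11).

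SEMA3D, a secreted guidance cue, rose by 2.76 at 24 h and had the highest change at 6 h among the risers named here (1.20, not called). ITGA2, the collagen-binding integrin alpha chain, rose by 2.44, MGP, matrix Gla protein, by 2.04, LRRC15, a membrane protein with leucine-rich repeats, by 1.82, and MOXD1, a monooxygenase-like protein of neural crest, by 2.23. ANK3, ankyrin G, rose by 1.91, SLITRK6, a neuronal membrane protein, by 1.87, TMEM47, a protein of cell junctions, by 1.86, and the non-coding RNA LINC00518 by 1.90. ANXA2, annexin A2, was called at 1.82 with a large error (SE 0.34, adjusted p = 0.0132): its DMSO level went from 418 to 233 while its PLX4720 level went from 534 to 824.

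The cell cycle genes were lower at 24 h, a time when 6.59% of all genes tested were called lower. In these bulk samples, fewer cells in cycle and less transcript per cell cannot be told apart. Of 25 mitosis genes tested, 24 were called lower at 24 h and 0 at 2 h or 6 h, with medians of 0.01 at 2 h, −0.04 at 6 h and −1.25 at 24 h (0.096 at 6 h under quantile normalization), and CDC20 was the member not called (−0.87, adjusted p = 0.0534). CDK1, the kinase that drives entry into mitosis, measured 547, 652 and 649 in DMSO and 597, 542 and 147 with PLX4720, a fall of 2.14 at 24 h (SE 0.16, adjusted p = 0.000703). KIF11, a spindle motor (−1.88), TTK, a spindle checkpoint kinase (−1.74), and NDC80 (−1.71) and NUF2 (−1.60), of the outer kinetochore, fell with it. In all 5 of these genes only the 24 h PLX4720 array was low, and the fall between 6 h and 24 h was itself called.

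Of 29 DNA replication genes, 25 were called lower at 24 h and 0 at 2 h or 6 h, with medians of 0.03 at 2 h, −0.12 at 6 h and −1.14 at 24 h. MCM10, which starts replication forks, measured 581, 647 and 605 in DMSO and 601, 517 and 183 with PLX4720 (−1.72, SE 0.14, adjusted p = 0.000703). CDC45, of the replicative helicase (−1.69), RFC3, of the clamp loader (−1.62), POLE, a replicative polymerase (−1.53), and ORC1, of the origin recognition complex (−1.46), were the next largest falls. The members not called were CDT1, POLD1, LIG1 and RPA2. The replication-dependent histone genes H2AC4 (−2.02) and H4C4 (−1.99) also fell, though near-identical copies make their rows uncertain.

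The G1 regulators were called at different times. CCND1, which activates CDK4 and CDK6, measured 1987, 2338 and 1762 in DMSO and 1758, 853 and 602 with PLX4720, with changes of −0.18, −1.45 and −1.55 (SE 0.19), and was called at 6 h (adjusted p = 0.0372). CDC25A, the phosphatase that activates CDK2, measured 580.3, 673 and 505 in DMSO and 555, 455 and 147 with PLX4720, with changes of −0.06, −0.56 and −1.78 (SE 0.19), and was called at 24 h (adjusted p = 0.00172). With PLX4720, cyclin D1 was far below DMSO at 6 h, and CDC25A was so at 24 h. The direct test between times called neither gene. Between 6 h and 24 h the difference was −1.21 for CDC25A (adjusted p = 0.109) and −0.09 for CCND1 (adjusted p = 0.975). For CCND1 the difference between 2 h and 6 h, −1.28, was not called either. CCNE2, cyclin E2 (−1.69), CDK2 (−1.13), CDK6 (−1.08) and the transcription factors E2F1 (−0.63) and E2F2 (−0.76) were also called lower at 24 h, 7 of the 9 tested. Of all genes tested, 6.59% were called lower at 24 h and 10.1% in either direction. Beside that share, 1 of 8 CDK inhibitors and pocket proteins was called, RBL1 (p107), at −1.07. CDKN1A, the p21 inhibitor, stood at 0.19 (adjusted p = 0.483).

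E2F factors switch on genes of DNA synthesis through TTTCCCGC-like sites near the start. Shown are 4 genes with a large 24 h fall that held such a site upstream of the start. The site is in capitals, 5′ to 3′ on the gene's strand, from RefSeq promoters of GRCh38.p14. These 4 genes are examples and not a ranking, because not every gene was considered for display. They lie at chr1:212035710-212035747 on the plus strand (DTL), chr3:48188424-48188491 on the minus strand (CDC25A), chr10:94545682-94545787 on the plus strand (HELLS, 2 sites) and chr13:33818064-33818131 on the plus strand (RFC3).
DTL: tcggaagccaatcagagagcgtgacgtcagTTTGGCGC
CDC25A: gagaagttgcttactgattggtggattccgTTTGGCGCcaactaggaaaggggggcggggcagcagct
HELLS: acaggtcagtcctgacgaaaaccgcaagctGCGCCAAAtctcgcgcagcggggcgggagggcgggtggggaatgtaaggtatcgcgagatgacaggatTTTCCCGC
RFC3: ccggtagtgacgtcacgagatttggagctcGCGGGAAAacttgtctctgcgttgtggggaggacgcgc
DTL, an adaptor of a ubiquitin ligase active in S phase, measured 1534, 1576 and 1464 in DMSO and 1463, 1394 and 411 with PLX4720 (−1.83, SE 0.13), and HELLS, a chromatin remodeller of dividing cells, 524, 608 and 605 in DMSO and 599, 573 and 184 with PLX4720 (−1.71, SE 0.15). Both were level with DMSO at 2 h and 6 h. Promoters were matched for 237 of the 301 genes called and at least 2-fold lower at 24 h (78.7%), and 33 of the 237 (13.9%) held an E2F site, beside 4.95% of the promoters of all genes tested. Because under 80% of either set was matched, the comparison is void and the shares are a description.

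Genes of growth and biosynthesis were among those called lower at 24 h, who made up 6.59% of all genes tested. Of 18 ribosome biogenesis genes, 9 were called lower and 0 higher, with medians of 0.01 at 2 h, −0.34 at 6 h and −0.62 at 24 h. NOLC1, a nucleolar chaperone, fell by 1.03, RRS1, an assembly factor of the large subunit, by 1.004, UTP20, a processome component, by 0.95, and POLR1B, of RNA polymerase I, by 0.85. RRS1 measured 1221, 1454 and 1436 in DMSO and 1262, 912 and 715 with PLX4720, and the 6 h array was already lower (−0.67, not called). Of 17 genes of amino acid synthesis and ATF4 targets, 9 were called lower at 24 h and 0 higher, with a median of −0.65. SLC7A5, the carrier of large neutral amino acids, measured 3864, 3635 and 3422 in DMSO and 3495, 3342 and 1312 with PLX4720 (−1.38, SE 0.14, adjusted p = 0.00143), and MTHFD2, of mitochondrial folate metabolism, fell by 1.42.

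For part of that list DMSO itself moved. SLC7A11, the cystine importer, measured 1154, 1203 and 1841 in DMSO and 1115, 691 and 366 with PLX4720, so the change of −2.33 (SE 0.29) is made of a higher DMSO array and a lower PLX4720 array. CHAC1, which degrades glutathione, measured 389, 373 and 718 in DMSO and 313, 273 and 195 with PLX4720 (−1.87, SE 0.39, adjusted p = 0.0223). PSAT1, of serine synthesis, measured 1324, 1374 and 1919.7 in DMSO and 1374, 1196 and 1001 with PLX4720 (−0.94, adjusted p = 0.0492). In CHAC1 and PSAT1 the 24 h DMSO array was the highest of the 6.

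In the lists of metabolism and chaperones, from 1 of 16 to 3 of 14 tested genes were called at 24 h in either direction, beside 10.1% of all genes tested. Of 18 glycolysis genes, 1 was called higher at 24 h, PFKFB2 (0.87), and 2 lower, PFKFB3 (−0.74) and TPI1 (−0.71), with a median of −0.09. With PD184352 the TPI1 change at 24 h was −0.17, and the difference between the compounds was not called. PFKFB2 and PFKFB3 make the same allosteric activator of phosphofructokinase. PFKFB3 measured 770.1, 785 and 782 in DMSO and 566, 445 and 468 with PLX4720, and PFKFB2 measured 222, 266 and 276 in DMSO and 234, 279.8 and 505 with PLX4720. PFKFB3 lay below every DMSO array at all 3 times, and PFKFB2 lay furthest above its DMSO array at 24 h. Of 17 genes of oxidative phosphorylation, PPARGC1A, the coactivator PGC1A that drives mitochondrial biogenesis, rose by 1.23 (SE 0.29, adjusted p = 0.0336) and TFAM, the mitochondrial transcription factor, fell by 0.62, and the median was 0.09. Of 16 cholesterol and fatty acid genes, INSIG1, a brake on sterol synthesis, rose (0.70), and 0 fell. Of 14 lysosome and autophagy genes, the cathepsins CTSK (0.82) and CTSF (0.69) rose and GLA, alpha-galactosidase, fell (−0.56). Of 11 heat shock genes, BAG3 (−1.02) and HSPH1 (−0.93), both partners of HSP70, fell.

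**Figure D4:**
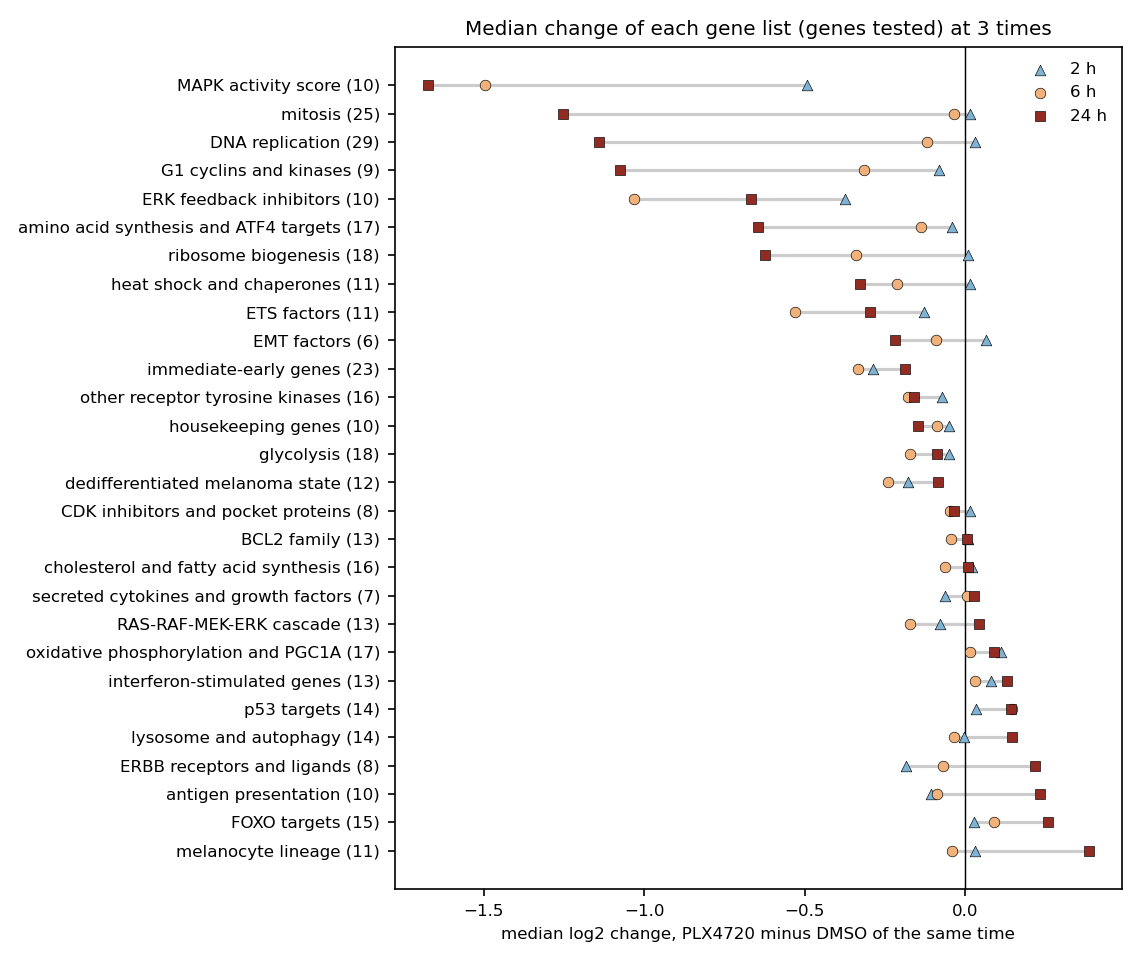
Median log2 change of 28 gene lists (number of genes tested in brackets) at 2 h (blue triangles), 6 h (orange circles) and 24 h (dark red squares), PLX4720 minus DMSO of the same time; points are medians without error bars. The MAPK activity score and the ERK feedback inhibitors are low by 6 h, the lists of mitosis and DNA replication only at 24 h, and of the lists drawn the melanocyte lineage has the highest median at 24 h.

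Of the 28 pathway lists, the melanocyte lineage list had the highest median at 24 h, 0.39 over 11 genes tested. Only 1 of the 11 was called, beside 10.1% of all genes tested. That gene was GPNMB, a melanosome glycoprotein, which measured 706, 684 and 606 in DMSO and 731, 774 and 1242 with PLX4720 (1.03, SE 0.15, adjusted p = 0.00543). MITF, the regulator of the lineage, stood at 0.15 (adjusted p = 0.866), MLANA at 0.67 (adjusted p = 0.0835) and SOX10 at 0.44 (adjusted p = 0.142). PMEL, a melanosome fibre protein, measured 2222, 1996 and 1186 in DMSO and 2320.5, 1942 and 1589 with PLX4720, a drift downward in both that left 0.42 (SE 0.36). The surface markers of melanoma MCAM and CSPG4 were called in opposite directions, at 1.19 and −0.73.

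The list of the dedifferentiated melanoma state did not move one way. Of 12 tested, 2 were called higher and 3 lower at 24 h, beside 3.52% and 6.59% of all genes tested. NGFR, a neural crest receptor (1.04), and ITGA2 rose, and NT5E, the ectonucleotidase CD73 (−1.32), TNC, tenascin C (−0.80), and ITGA3 (−0.58) fell. The ZEB factors, repressors of E-cadherin that replace each other in melanoma, were called in opposite directions at 24 h. ZEB2 measured 183, 192 and 179.7 in DMSO and 252, 356 and 569.6 with PLX4720 (0.46, 0.88 and 1.66, SE 0.13, adjusted p = 0.000703 at 24 h). ZEB1 measured 117, 142 and 168 in DMSO and 124, 82.4 and 65.3 with PLX4720 (0.08, −0.78 and −1.35, SE 0.22, adjusted p = 0.00856 at 24 h). ZEB2 was above all DMSO arrays at every time, and ZEB1 was below them from 6 h. TWIST1 fell by 0.54 (adjusted p = 0.0473), and SNAI1 and SNAI2 were not called.

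In the stress and survival lists, calls in either direction at 24 h numbered 5 of 15 FOXO targets, 2 of 14 p53 targets and 2 of 13 BCL2 family genes, beside 10.1% of all genes tested. Of the FOXO targets, 4 were called higher at 24 h: CITED2, a transcriptional coregulator (1.38), SESN3, an antioxidant and mTORC1 inhibitor (1.07), TXNIP, an inhibitor of glucose uptake (0.88), and BCL6, a repressor (0.78). TRIB1 was called lower, and the median was 0.26. Of the p53 targets, TP53INP1, an inducer of autophagy and cell death (2.00), and TP53I3 (0.92) rose and 0 fell, while MDM2 (−0.01) and CDKN1A were not called. In the BCL2 family, 2 pro-apoptotic members were called in opposite directions at 24 h. BMF, which binds and blocks BCL2 proteins, measured 173, 164 and 165 in DMSO and 223, 275 and 511 with PLX4720 (0.37, 0.75 and 1.63, SE 0.13, adjusted p = 0.000703 at 24 h), and PMAIP1 347, 348 and 369 in DMSO and 217, 140.0 and 86.9 with PLX4720 (−0.68, −1.31 and −2.08, SE 0.13, adjusted p = 0.00036 at 24 h). Both changes were larger at each later time. BCL2L11, the protein BIM, stood at 0.01 (adjusted p = 0.99).

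The counts for genes of signals to other cells stand beside the same 10.1% of all genes tested. Of 7 secreted cytokines and growth factors tested, CCL2, a monocyte attractant, rose by 1.73 (adjusted p = 0.00365) and VEGFA fell by 0.93 (adjusted p = 0.00854), and 7 others were among the dim genes, CXCL8 and IL6 included. Of 10 antigen presentation genes 1 was called, CIITA, the activator of class II genes, which measured 368, 395 and 342 in DMSO and 310.5, 246 and 579 with PLX4720. It lay below DMSO at 6 h (−0.68, not called) and above it at 24 h (0.76, SE 0.15, adjusted p = 0.0165). Of 13 interferon-stimulated genes 1 was called, IRF9 (0.63, adjusted p = 0.0496), close to the threshold. Of 10 housekeeping genes 1 was called at 24 h, HPRT1 (−0.67), and the median was −0.15.

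Whether a change differed between times was tested directly. Between 2 h and 6 h 0 genes were called, with 260 at an unadjusted p below 0.05, and 31 were called without the 24 h DMSO array. Between 6 h and 24 h 29 genes were called upward (0.227% of genes tested) and 54 downward (0.422%). The upward ones were led by ANGPTL7 (3.82), ITGA2 (2.71), CCN3 (2.41), JUN (2.18), MOXD1 (2.16) and the non-coding RNA LINC00589 (2.06), and the downward ones by ETV4 (−2.19), H4C4 (−1.99), CYB5R2 (−1.96), HAPLN1 (−1.93), H2AC4 (−1.88) and CDK1 (−1.87). DUSP6 was the only feedback inhibitor among the 83. Without the filter on dim genes 1 gene was called between 6 h and 24 h, and without the 2 h DMSO array 707.

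Some genes called and at least 2-fold lower at 6 h had a smaller change at 24 h. After DUSP6 and SPRY2 these were ELK3 (−1.19 to −0.54), SPRED2 (−1.11 to −0.58), ST3GAL5, a ganglioside synthase (−1.25 to −0.74), IER3, TLR4 (−1.17 to −0.85) and MANSC1 (−1.20 to −0.93). The difference was called for DUSP6 alone among these 8.

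The other gene lists were set beside PD184352 as well, against the same DMSO arrays. The list medians at 24 h were −1.25 with PLX4720 and −1.36 with PD184352 for mitosis, −1.14 and −1.44 for DNA replication, and −1.68 and −2.64 for the 10 genes of the MAPK activity score, a published set of ERK output genes. Apart from DUSP6, no single gene was called between the compounds, and the doses differed. Of the 301 genes called and at least 2-fold lower with PLX4720 at 24 h, 259 were lower still with PD184352. Of the 132 called and at least 2-fold higher, 100 were higher still with PD184352. Over all genes tested, 6448 of 12786 lay further in the direction of their PLX4720 change with PD184352. The cause was not tested.

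As a mean over the 3 times, 0 genes were called, in a fit of treatment and time on the 6 arrays where a change that grows with time counts as spread. In it 992 genes had an unadjusted p below 0.05 and the smallest adjusted p was 0.488. The same fit on all 9 arrays called 1 gene, which was lower. In the 6-array fit the mean change of IER3 was −1.56 (SE 0.10, adjusted p = 0.488).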

How the data were processed

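Gene expression in A375P cells was measured on exon arrays whose rows are transcript clusters. The authors deposited linear intensities; their background correction, normalization, scaling and genome build are not given in the sources used here. The submitters' processing notes list R 2.8.0, limma and RMA without saying what each did. The 35446 rows held 19380 with a single gene symbol in the platform annotation, which were used, 3339 with several symbols and 12727 not listed there. Names were checked against RefSeq genes (GRCh38.p14), and 0 changed. Where a gene had several rows (1794 genes), its brightest one on average was taken, and the 4261 genes with the lowest means (25%) were left out.

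Changes are differences of log2(intensity + 1) on the deposited intensities, a scale that understates changes at low intensity, with no normalization added. The spread came from the 3 DMSO arrays (2 residual degrees of freedom, prior 6.02) with limma 3.58.1 in R 4.3.3, and p-values were adjusted by Benjamini-Hochberg over 12786 genes. The difference between times is the difference of 2 changes. The fit was tested on simulated data. The number of arrays limits the precision.

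The comparison, the 33 gene lists and the rule for named genes were chosen with earlier results of these data known, and the lists carry no test. The rule took, among called genes, the 10 largest falls and rises at 2 h and 6 h, 15 at 24 h, the 6 largest each way between 6 h and 24 h, between 2 h and 6 h and between the compounds at 24 h, up to 10 each way called in the mean, 8 genes with the largest return, all ERK feedback inhibitors and up to 5 of each other list by 24 h change. Other members are named where they were called or to account for a list. Alternatives were other filters (none, 50%), pseudocounts (0, 16), quantile normalization, the mean of a gene's rows, each array left out, the mean DMSO array as control, a prior that follows intensity, and a spread or a mean from all 9 arrays.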

Additional observations from a re-analysis of the deposited data

Results flagged for a closer look

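The change with PLX4720 differed between 6 h and 24 h in 83 genes by a test of the difference itself, and the named ones among them are listed with that difference (24 h minus 6 h, log2) and limma's adjusted p. Upward differences were found for ANGPTL7 (3.82, adjusted p = 0.00135), ITGA2 (2.71, adjusted p = 0.0252), CCN3 (2.41, adjusted p = 0.0252), JUN (2.18, adjusted p = 0.018), MOXD1 (2.16, adjusted p = 0.0252), LINC00589 (2.06, adjusted p = 0.0339), ANK3 (1.64, adjusted p = 0.0339), MGP (1.63, adjusted p = 0.0339), LRRC15 (1.55, adjusted p = 0.0275), CIITA (1.44, adjusted p = 0.036), and DUSP6 (1.31, adjusted p = 0.0395). Downward differences were found for ETV4 (−2.19, adjusted p = 0.0252), H4C4 (−1.99, adjusted p = 0.0291), CYB5R2 (−1.96, adjusted p = 0.0252), HAPLN1 (−1.93, adjusted p = 0.0388), H2AC4 (−1.88, adjusted p = 0.0252), CDK1 (−1.87, adjusted p = 0.0252), LPL (−1.79, adjusted p = 0.0252), TTK (−1.74, adjusted p = 0.0252), NDC80 (−1.74, adjusted p = 0.0339), TM4SF1 (−1.65, adjusted p = 0.0388), MRGPRX4 (−1.61, adjusted p = 0.0252), CDC45 (−1.58, adjusted p = 0.0252), KIF11 (−1.55, adjusted p = 0.0444), RFC3 (−1.49, adjusted p = 0.0309), ETV5 (−1.49, adjusted p = 0.0252), NUF2 (−1.45, adjusted p = 0.0339), MCM10 (−1.40, adjusted p = 0.0339), and SLC7A5 (−1.26, adjusted p = 0.0422).

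DUSP6 also differed between PLX4720 and PD184352 at 24 h, by 1.84 (adjusted p = 0.0153), higher with PLX4720. The doses were 0.4 µM and 1 µM.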

How the results depend on the processing

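The counts of called genes depend most on which arrays give the spread. With the spread from a treatment plus time fit on all 9 arrays, 0 genes were called at 2 h, 6 h or 24 h. Between the compounds at 24 h it also called 0. In that fit a change that grows with time counts as spread, so its 0 calls cannot tell whether such changes exceed the error. Leaving out 1 array at a time gave 0 to 17 called genes at 2 h, 36 to 340 at 6 h, 312 to 2576 at 24 h, 0 to 31 between 2 h and 6 h, 83 to 707 between 6 h and 24 h, 0 to 4, 0 to 6 and 0 to 35 between the compounds at 2 h, 6 h and 24 h, and 0 to 7 in the mean. Where a DMSO array was left out, the spread rested on fewer arrays and fewer degrees of freedom, so the error itself changed. With the mean of the DMSO arrays as control 90 genes were called at 6 h and 2375 at 24 h. Without a filter on dim genes 6 were called at 6 h, 1 between 6 h and 24 h and 0 between the compounds at 24 h, and 19 genes were 2-fold at 2 h. With the lower 50% left out the counts were 74, 208 and 2. Quantile normalization gave 22 at 6 h, 203 between 6 h and 24 h and 2 between the compounds at 24 h. The mean fit on 9 arrays called 1 gene. The 2-fold counts at 6 h (40 to 56) and 24 h (382 to 469) stayed within 1.5 times under the alternatives run for them, and 57.3% to 70.1% of the genes called at 24 h were lower where the count did so.

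Of the named genes' changes, 118 of 182 lost their call with the 9-array spread, 51 of 165 without the 6 h DMSO array and 38 of 202 without the filter. Signs turned for values near 0: SPRED1 at 2 h (−0.10) and SPRED3 (0.018) and PMEL (−0.13) at 24 h with the mean DMSO control, SPRED3 with quantile normalization (0.0086), and PLK3 (0.079) and PDGFA (−0.070) at 24 h with the mean of a gene's rows. Of the gene lists' medians, none turned sign at 24 h under quantile normalization, and those that did at 2 h or 6 h lay between −0.12 and 0.096. The cause was not tested.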

Other observations

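The DMSO arrays differed among themselves in few genes. Between 24 h and 2 h, 6 genes differed at least 2-fold: ATL3, CCN1, DACT1, DOK3, LINC00342 and YPEL2. Between 24 h and 6 h 1 did, MRPL20, and between 6 h and 2 h 0 did. CCN1, a matricellular target of YAP and serum response factor, measured 615, 401 and 239.6 in DMSO and 588, 476 and 347 with PLX4720 at 2, 6 and 24 h. The standard deviation over all genes of the difference between PLX4720 and DMSO at 2 h (0.134) was below that of the difference between the 6 h and 2 h DMSO arrays (0.170).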
